A study of Mus musculus with 10 samples.

Results

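The ribonuclease gene cluster on mouse chromosome 14 was followed through a macrophage priming experiment by Hi-C, in which DNA ends that are near each other in fixed nuclei are ligated and read by sequencing. The cluster was made up of 7 genes, Rnase4, Ang, Rnase6, Rnase1, Rnase2b, Ang2 and Ear14, out of 21755 protein-coding genes on the autosomes and X. A chromatin loop, here a called pair of 10 kb bins, was counted for the cluster when an anchor bin overlapped the 100 kb on either side of a transcription start site (TSS) of these genes. By this rule 69 of the 153264 distinct bin pairs in the lists belonged to the cluster. The genes were chosen by their loop numbers in these same lists, so loop numbers and contacts are given as a description and no test was made on them.

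The cells were bone marrow-derived macrophages (BMDMs) of wild-type female C57BL/6 mice aged 2 to 3 months, differentiated with M-CSF at 20 ng/ml, and treatments started on day 6. M0[CTR] cells received no cytokine. M2[IL-4] cells were exposed to IL-4 at 20 ng/ml for 24 h, and M2p[pIL-4] cells were washed after that exposure and rested for 24 h. IFNG cells were given IFNG (20 ng/ml, 3 h) and no priming, and pIL-4 + IFNG cells received the same IFNG treatment after priming, washout and rest. Runs of 5 values are given in this order of groups. Each group had 2 samples but only 1 loop list, and differences between groups could not be set against replicates. List length was 53424 loops in untreated cells, 58260 with IL-4, 67728 after washout, 55012 with IFNG and 67000 in pIL-4 + IFNG. Loop lists hold no expression, so neither the macrophage label nor the activity of any ribonuclease gene could be examined here.

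The genes belong to the ribonuclease A family, small secreted enzymes that cut RNA and that serve in host defence, in the clearance of extracellular RNA and in blood vessel growth. The family expanded by gene duplication, and in rodents the branch stored in eosinophil granules, the eosinophil-associated ribonucleases, became especially large. Of the 7 genes only Rnase2b and Ear14 belong to that branch, so the name of the cluster covers other branches as well. Angiogenin, made by Ang, stimulates blood vessel growth and cuts tRNA under stress, and Ang2 is a related angiogenin gene. Rnase4 makes a ribonuclease that prefers uridine, Rnase6 an antimicrobial ribonuclease of immune cells, and Rnase1 the pancreatic-type ribonuclease also found in blood. Many chromatin loops form where cohesin, which extrudes DNA, is halted by CTCF bound at sites that point toward each other.

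On GRCm38 the genes lie in the order Rnase4, Ang, Rnase6, Rnase1, Rnase2b, Ang2 and Ear14. Rnase4 (chr14:51091077-51106151, plus strand) and Ang (chr14:51091150-51102009, plus strand) overlap and start within the same bin. Rnase6 (chr14:51123908-51132187, plus strand) starts 32.8 kb after the Rnase4 TSS, and Rnase1 (chr14:51144998-51146785, minus strand) starts 55.7 kb after it. Rnase2b (chr14:51162260-51163018, plus strand) follows at 71.2 kb, Ang2 (chr14:51195324-51199148, minus strand) at 108.1 kb and Ear14 (chr14:51203391-51204338, plus strand) at 112.3 kb. The windows of neighbouring genes overlap, so most loops were counted for several genes and the 7 genes are not 7 independent readings.

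The DNA at the anchors most used by the cluster is given here because 5 of these 6 sequences lie in the 4 bins that took part in the most loops. Each holds a match to the 14-base CTCF consensus with at most 1 mismatch, and of several matches in the Olfr750 bin those without a mismatch are given. The sixth sequence lies in a bin with 19 loops, near Rnase2a. The bins chr14:50800001-50810000 and chr14:51240001-51250000 also had 19 loops and are left out. The former holds a minus strand match with 1 mismatch, and the latter holds none. In each sequence shown, the match is in capitals, with 8 flanking bases on each side, all from GRCm38. It is read 5′ to 3′ in the direction in which the motif points.
Ccnb1ip1 intron, chr14:50799967-50799996, plus strand, 1 mismatch: cctgttggCCACAAGATGGCAGtgtaagga
Intergenic, 1.3 kb from Olfr750, chr14:51064951-51064980, minus strand, 0 mismatches: ttgtccttCCAGCAGATGGCGCtcccgaac
Olfr750 exon, chr14:51069790-51069819, minus strand, 0 mismatches: gaagtgtgCCACTAGGGGGCAGgctttgga
Rnase4 intron, chr14:51103508-51103537, plus strand, 0 mismatches: aggactggCCACCAGATGGCAGcacctcct
Intergenic, 13.4 kb from Rnase2b, chr14:51176433-51176462, plus strand, 0 mismatches: tgctttggCCAGCAGGGGGCGCaccttcac
Intergenic, 10.2 kb from Rnase2a, chr14:51266287-51266316, minus strand, 1 mismatch: tgcattggCCGGCAGGGGGCGCacgttcac

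The last pair of these sequences was nearly the same. Over the 30 bases shown they were identical at 27 (90% of positions), and over 114 bases centred on the match at 99 (86.8%). Compared base by base over longer stretches, identity fell to 79% over 214 bases and 66.2% over 1014 bases. The 114-base stretches are given with the differing bases in capitals, since the loop between their bins was among the 3 pairs with the most contacts summed over the 5 lists, among those called in every list.
After Rnase2b, chr14:51176391-51176504, plus strand: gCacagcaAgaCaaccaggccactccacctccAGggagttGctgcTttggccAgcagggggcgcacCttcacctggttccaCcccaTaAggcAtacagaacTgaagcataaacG
Near Rnase2a, chr14:51266245-51266358, minus strand: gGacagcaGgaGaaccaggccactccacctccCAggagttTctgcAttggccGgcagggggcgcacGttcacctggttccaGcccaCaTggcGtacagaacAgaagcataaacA
The motif in the former points away from Rnase2b and that in the latter points back toward it. A match is a description of the letters, and CTCF binding was not measured here.

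More loops were called around the cluster in the M2[IL-4] and primed lists than in the M0[CTR] and IFNG lists. The cluster held 25 loops in untreated cells, 37 with IL-4, 34 after washout, 26 with IFNG and 37 in pIL-4 + IFNG. The 3 lists from cells exposed to IL-4 were thus all above the 2 lists from cells that never were. Whether cells without IL-4 were kept for the same added time is not stated, so exposure and time in culture cannot be told apart. Relative to M0[CTR], this was 48% more loops in M2[IL-4], where the whole list was 9.05% longer. In M2p[pIL-4] the cluster had 36% more loops and the list was 26.8% longer, so most of the rise there went with the length of the list. In pIL-4 + IFNG the cluster gained 48% and the list 25.4%, and after IFNG alone they gained 4% and 2.97%. A large part of the count came from adjacent bins that were called together: with touching bin pairs merged into 1 loop, the lists held 8, 9, 9, 6 and 8 loops, in the same order. This left no clear excess of the IL-4 exposed lists over M0[CTR]. IFNG was then lowest, at 6 loops against 8 in M0[CTR], where before merging it had 26 against 25.

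Gene by gene, the counts fell along the cluster from Rnase4 to Ear14. Rnase4 and Ang, which share their window almost completely, each had the 25, 37, 34, 26 and 37 loops of the whole cluster in M0[CTR], M2[IL-4], M2p[pIL-4], IFNG and pIL-4 + IFNG. Rnase6 had 25, 36, 33, 26 and 37 loops in that order. Rnase1 had 23, 33, 32, 24 and 36. These 4 genes differed from each other by at most 4 loops in a list. Rnase2b, the nearer of the eosinophil-associated genes, had 22, 31, 30, 22 and 35 loops. Ang2 had 15, 21, 19, 13 and 24, and Ear14 had 12, 19, 15, 11 and 21. The drop between Rnase2b and Ang2 came where the window no longer reached beyond the Rnase4 TSS bin.

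**Figure D1:**
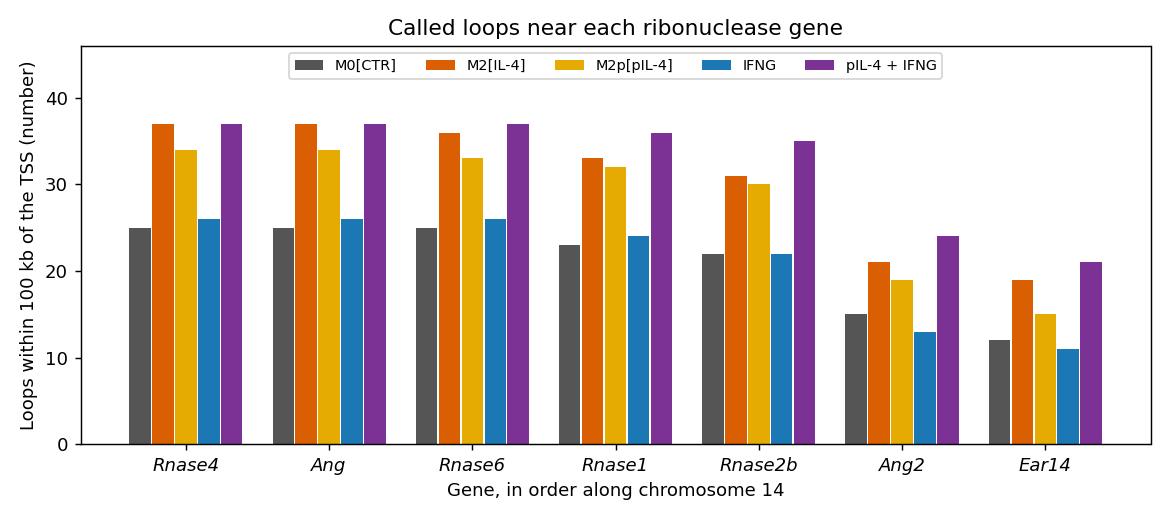
Number of called loops with an anchor within 100 kb of the TSS (vertical axis) for each ribonuclease gene in chromosomal order (horizontal axis), with 1 bar per list and no error bars because each group has 1 list. At Ear14 the bars stand at 12, 19, 15, 11 and 21 loops, and at each gene the IFNG bar is within 2 loops of the M0[CTR] bar.

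None of the 7 genes passed a 2-fold change in scaled loop number in any of the 7 comparisons of lists. Loop numbers were scaled by list length with 1 loop added, and a ratio is given as log2. Between M2[IL-4] and M0[CTR], 0 of 7 genes were past 2-fold higher, against 4.15% of all genes, and 0 were past 2-fold lower, against 6.05%. All 7 ratios were above 0, from 0.33 at Ang2 to 0.50 at Ear14, with a median of 0.38, while the median over all genes was -0.13. The ratio of Rnase6 was -0.12 in a 50 kb and -0.25 in a 25 kb window, and those of Ang2 and Ear14 were -0.12 and -0.44 with touching pairs merged. Among all genes the ratios in the 100 kb window, without merging, stood between percentile 80.8, at Ang2, and percentile 86.7, at Ear14. Many genes have very few loops, and among the 9751 genes with a mean of at least 10 loops the all-gene median was -0.02.

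After washout the ratio to M0[CTR] was close to 0. In M2p[pIL-4] the 7 genes had a median log2 ratio of 0.09, with 5 genes above 0 and 2, Ang2 and Ear14, below it, and 0 past 2-fold (background 4.06% higher and 3.97% lower). Compared with M2[IL-4] directly, all 7 genes were below 0 in M2p[pIL-4], with a median of -0.34 and Ear14 at -0.54 (background 4.22% higher and 4.63% lower), where the M2p[pIL-4] list was the longer. Without scaling, the ratio over the whole cluster was -0.12.

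After IFNG alone loop numbers were close to those of M0[CTR]. Against M0[CTR] the median log2 ratio of IFNG was 0.01, from -0.23 at Ang2 to 0.02 at Rnase1 (background 4.63% higher and 6.05% lower). Primed cells given IFNG stood higher than M0[CTR], with a median of 0.30 and a range of 0.22 to 0.43 (background 5.14% higher and 4.66% lower). Against IFNG without priming their median was 0.28, with Ear14 at 0.59 (background 3.71% higher and 4.49% lower). Against M2p[pIL-4] it was 0.18, with Ear14 at 0.48 (background 6.35% higher and 2.64% lower). In these 3 comparisons of pIL-4 + IFNG the highest ratio of the 7 genes was that of Ear14, at the far end of the cluster.

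Over the cluster as a whole the counting error was wider than these differences. For M2[IL-4] over M0[CTR] the log2 ratio was 0.42, with a 95% counting interval, computed without the added loop, of -0.33 to 1.23. For pIL-4 + IFNG over M0[CTR] it was 0.22 (-0.53 to 1.03), and for M2p[pIL-4] over M2[IL-4] it was -0.34 (-1.05 to 0.37). The intervals of the other 4 comparisons also included 0. They treat neighbouring bin pairs as independent, which they are not, and leave out the spread between cultures.

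The loops of the cluster fell into 2 neighbourhoods, divided here at the bin with the Rnase4 and Ang TSSs. Of the 69 bin pairs, 34 joined an upstream hub around Ttc5, Ccnb1ip1, Parp2 and Tep1 (chr14:50770001-50870000), or for 2 pairs the bin of Pnp and Pnp2, to the DNA around the members. These are called upstream pairs. Another 32 pairs had both anchors from the Rnase4 TSS bin onward and ended no further than chr14:51290000, past Rnase2a. These are called inner pairs. They used the Rnase4 TSS bin in M2[IL-4] and pIL-4 + IFNG only. The next bin, chr14:51100001-51110000, took part in 28 cluster loops over the 5 lists. The remaining 3 were short pairs that started left of Rnase4 and ended no further than its TSS bin. Only 2 pairs ran from the hub past the TSS bin of Rnase4, and each was called in 1 list, with 25 contacts in M0[CTR] and 16 in pIL-4 + IFNG. On the far side, the next anchor bin after the window was that of Mettl17, 576.6 kb away.

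**Figure D2:**
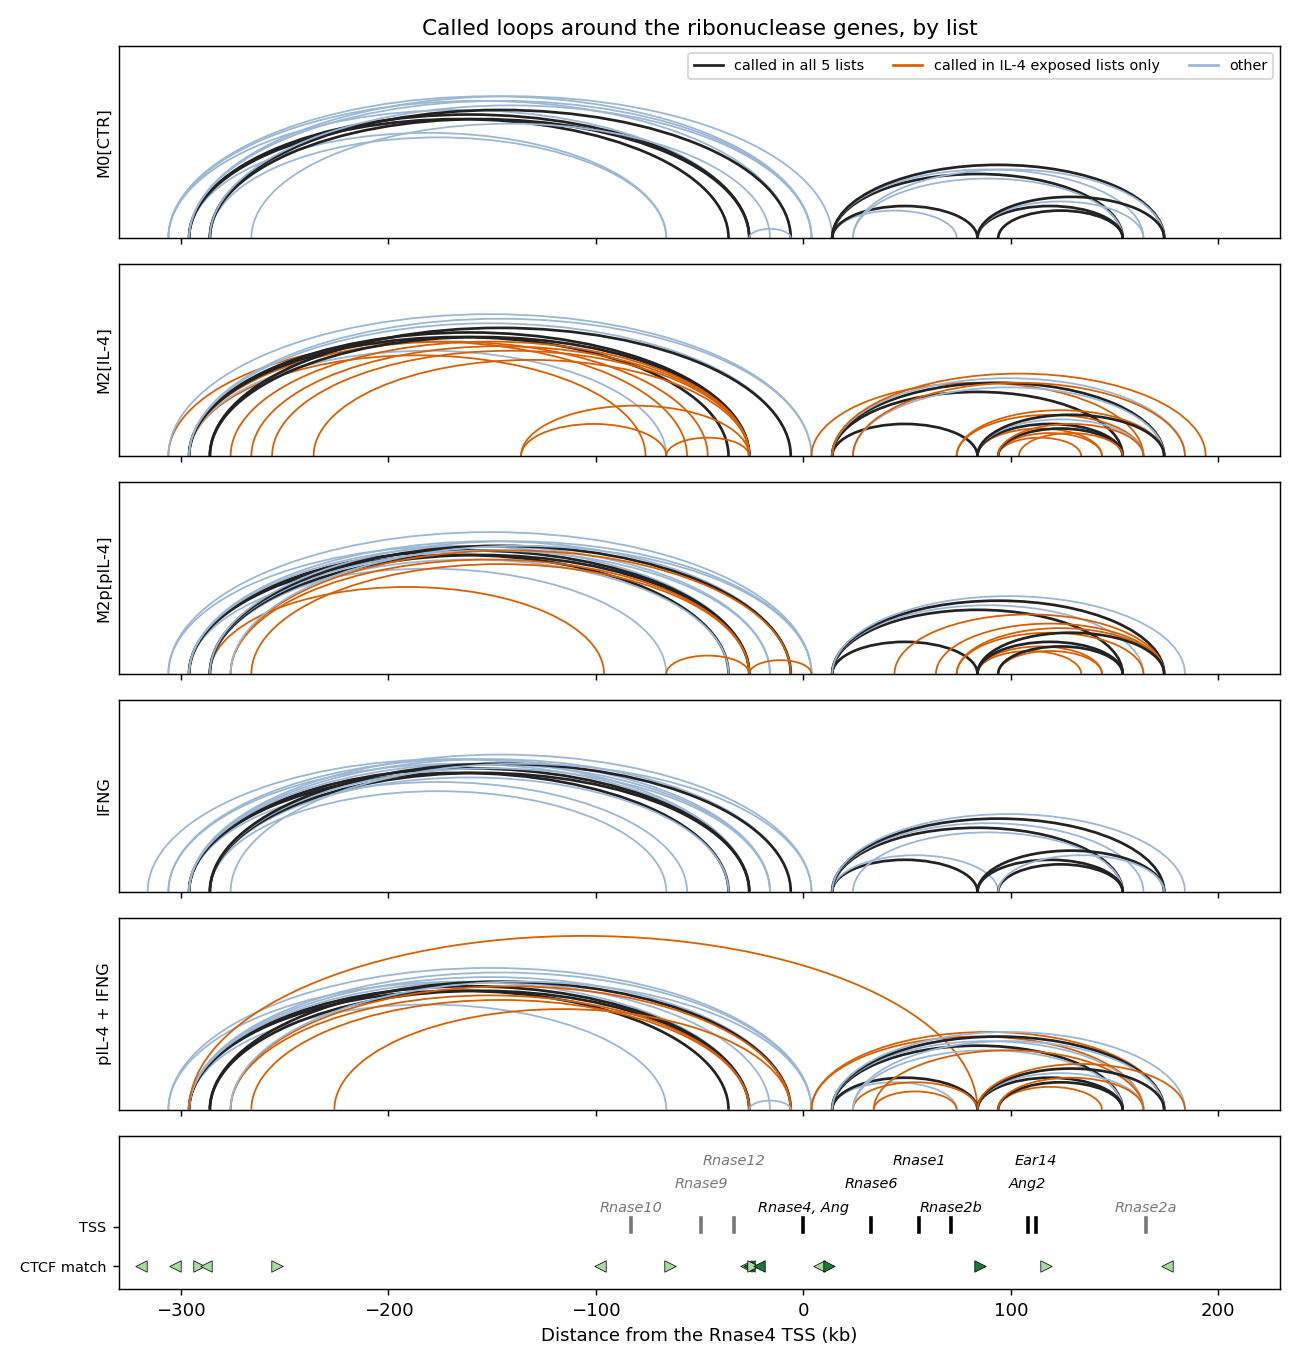
Called loops of the cluster in each list, drawn as arcs between bin centres against the distance from the Rnase4 TSS in kb (arc height follows span and carries no measurement), with TSS positions (black for the 7 genes, grey for other family members) and CTCF consensus matches in the anchor bins and other bins of the window (arrowheads give motif direction, dark green for 0 mismatches, light green for 1) in the lowest panel. Arcs form a left and a right set about 0 kb in each list, with 1 arc from the hub past the TSS bin of Rnase4 in M0[CTR] and 1 in pIL-4 + IFNG, and the orange arcs, called only in IL-4 exposed lists, are 18 of the 32 pairs on the right.

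The higher loop numbers of M2[IL-4] and pIL-4 + IFNG lay mainly in the inner neighbourhood, and those of M2p[pIL-4] were split evenly between inner and upstream pairs. Inner loops numbered 11 in untreated cells, 19 with IL-4, 15 after washout, 11 with IFNG and 20 in pIL-4 + IFNG. Upstream loops numbered 13, 17, 17, 15 and 16 in the same order. The scaled log2 ratio of M2[IL-4] to M0[CTR] was 0.61 (-0.48 to 1.88) for inner and 0.24 (-0.87 to 1.42) for upstream loops, so the intervals overlapped widely. Summed contacts of inner loops were 489, 957, 692, 546 and 997. These sums grow with the number of loops called, and the median contacts per inner loop moved less, at 43, 48, 44, 47 and 50. The median span of inner loops was 90 kb in 4 lists and 95 kb in pIL-4 + IFNG.

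Some of the member promoters lay in anchor bins, and which ones differed between lists. The bin holding the TSS of both Rnase4 and Ang was an anchor in all 5 lists, with 3, 3, 4, 2 and 5 loops. The Rnase2b TSS bin had 1, 2, 2, 0 and 2 loops. The Rnase6 TSS bin had 2 loops in pIL-4 + IFNG and none elsewhere, and the Ang2 TSS bin had 1 loop in M2[IL-4] alone. No loop was anchored in the TSS bin of Rnase1 or of Ear14 in any list. In all, the TSS bins of 3, 4, 3, 2 and 4 of the 7 genes were anchors, or 42.9%, 57.1%, 42.9%, 28.6% and 57.1%, with Rnase4 and Ang sharing a bin, compared with 34.8%, 36%, 39.5%, 35% and 39.8% of all protein-coding genes. Of GATC, where the enzyme MboI of the protocol cuts, the empty bin of Rnase1 had 29 and that of Ear14 had 34 sites, and the 26 window bins that were anchors had a median of 27. Repeats covered 26.6% of the Rnase1 bin and 55% of the Ear14 bin, and between 17.1% and 76.4% of the anchor bins, with a median of 25.25%. The part of either in the missing calls was not tested.

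**Figure D3:**
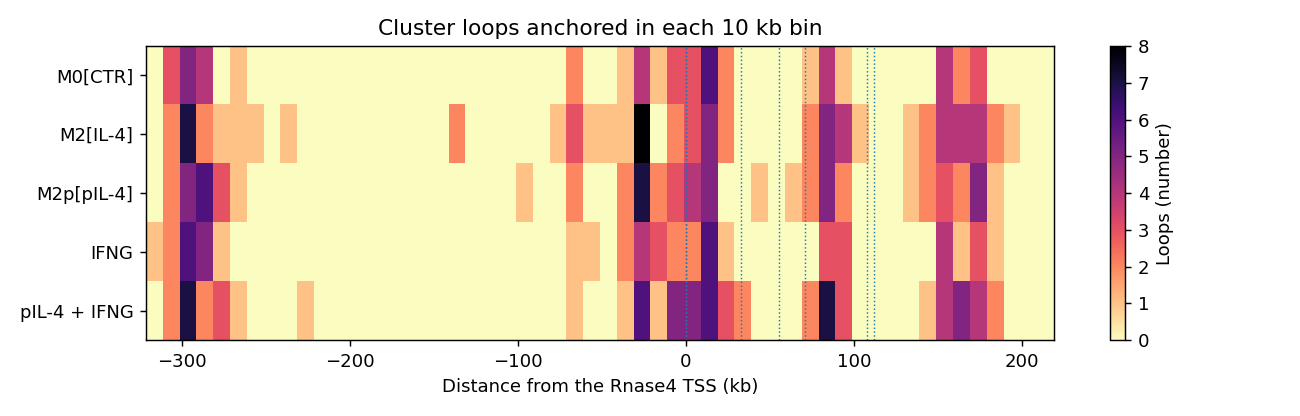
Number of cluster loops anchored in each 10 kb bin (colour), by list (rows) and distance from the Rnase4 TSS in kb (horizontal axis), with dotted lines at the TSSs of the 7 genes. The bin 3′ of the shared Rnase4 and Ang start carries 5 or 6 loops in every list, and the bins of Rnase1 and Ear14 carry none.

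The anchors of the inner neighbourhood were the 3′ part of Rnase4 and Ang, the stretch between Rnase2b and Ang2, and the flanks of Rnase2a. The bin chr14:51100001-51110000, with the CTCF match in the Rnase4 intron, took part in 6, 5, 5, 6 and 6 loops in M0[CTR], M2[IL-4], M2p[pIL-4], IFNG and pIL-4 + IFNG, so its use changed little. The stretch chr14:51170001-51190000 after Rnase2b had 5, 9, 7, 6 and 10 loops. The right edge, chr14:51220001-51290000, had 9, 18, 14, 9 and 16. The counts that stood higher in M2[IL-4] and pIL-4 + IFNG were thus those of the Rnase2b to Ang2 interval and of the right edge, not that of the Rnase4 bin. On the upstream side the Ccnb1ip1 bin was the most used, with 30 loops over the 5 lists, ahead of the Olfr750 bin with 29. The Olfr750 bin had 4, 8, 7, 4 and 6 loops, again higher in the 3 IL-4 exposed lists, and the hub had 13, 15, 17, 15 and 16.

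Of the 69 pairs, 33 (47.8%) were called only in IL-4 exposed lists. These are 3 of the 5 lists and include the longest, and over the whole lists the share was 45.6%, close to that of the cluster. Pairs called in at least 2 of the 3 exposed lists and in neither other list numbered 10 (14.5%, against 8.22% overall). By neighbourhood, 18 of 32 inner pairs (56.2%) and 13 of 34 upstream pairs (38.2%) were called only after IL-4 exposure. Pairs called only without it numbered 9 (13%, against 19.3% overall), of which 2 were inner and 7 upstream. The single inner pair called in all 3 exposed lists and nowhere else joined the bins starting at 51180001 and 51230001, with 52 contacts with IL-4, 42 after washout and 41 in pIL-4 + IFNG. Its neighbour, from 51180001 to 51240001, was called in all 5 lists. All these counts are of the same 2 bins. With anchors matched within 25 kb, 0 of 37 cluster loops of M2[IL-4] were confined to the 3 exposed lists. With 3 divided by the number of loops as the limit for a count of 0, that allows a share of up to 8.11%. The whole list had 1.44%. A pair missing from a list was not called there and has no contact value, so it cannot be read as absent.

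When loops whose anchors lay within 25 kb were matched across lists, most cluster loops had a match in every list. In M0[CTR], 24 of 25 cluster loops (96%, 95% Wilson interval 80.5 to 99.3) had a match in all 5 lists, against 81% of all loops. The share was 86.5% with IL-4, 91.2% after washout, 100% with IFNG and 91.9% in pIL-4 + IFNG, each above the share over its whole list (78.3%, 76.2%, 80% and 76.1%). Transient loops, found in M2[IL-4] but in neither M0[CTR] nor M2p[pIL-4], numbered 3 of 37 (8.11%, against 7.23% of all loops). There was 1 Memory loop, seen with IL-4 and after washout and not called in the untreated list (2.7%, against 6.32%). No loop of 34 was Primed, that is found in M2p[pIL-4] alone of these 3 lists, which allows a share of up to 8.82% where the whole list had 8.35%. No loop of 26 was gained with IFNG over M0[CTR], which allows up to 11.5% by the same limit (whole list 13%). The upper Wilson limit was 12.9%, so the 2 shares were hardly apart. After priming, 2 of 37 (5.41%, against 11.4%) were gained with IFNG. These classes depended on the matching distance. When a match had to use the same 2 bins, the share matched in all 5 lists was 40%, 27%, 29.4%, 38.5% and 27%. Over the whole lists it was 26.3%, 24.1%, 20.8%, 25.6% and 21%. By this rule 13 of 37 loops were Transient (35.1%, against 39% of all loops) and 9 of 37 Memory (24.3%, against 16.5%). Primed loops were 10 of 34 (29.4%, against 43.6%). Then 11 of 26 loops (42.3%, against 54.4% of the whole list) counted as gained with IFNG and 15 of 37 (40.5%, against 51.7%) as gained with IFNG after priming. Intervals and limits cover counting error only.

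Contacts could be compared in every list at the 10 bin pairs that all 5 lists called, 4 upstream and 6 inner. The inner pair with the most contacts joined the Rnase4 bin (chr14:51100001-51110000) to the bin after Rnase2b (chr14:51170001-51180000). It had 61 contacts in untreated cells, 62 with IL-4, 73 after washout, 79 with IFNG and 72 in pIL-4 + IFNG, so M0[CTR] and M2[IL-4] were the low lists. The pair that joined the Rnase4 bin to chr14:51260001-51270000, past Rnase2a, had 35 contacts in untreated cells (95% Poisson interval 24.4 to 48.7), 61 with IL-4 (46.7 to 78.4), 62 after washout (47.5 to 79.5), 55 with IFNG (41.4 to 71.6) and 66 in pIL-4 + IFNG (51 to 84). Only the pIL-4 + IFNG interval was clear of that of M0[CTR]. This was the strongest cluster loop relative to its span in M2[IL-4], M2p[pIL-4] and pIL-4 + IFNG, with 1.91, 1.94 and 2.13 times the median contacts of loops of the same span in the list.

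At the pair between the near-identical sequences the 3 IL-4 exposed lists stood above the others. It joined the bin after Rnase2b to chr14:51260001-51270000 and had 47 contacts in untreated cells (34.5 to 62.5), 78 with IL-4 (61.7 to 97.3), 57 after washout (43.2 to 73.9), 44 with IFNG (32 to 59.1) and 69 in pIL-4 + IFNG (53.7 to 87.3). By counting error alone, which is no test between lists, the M2[IL-4] interval lay above that of IFNG and slightly overlapped that of M0[CTR]. The Rnase4 bin to chr14:51240001-51250000 had 43, 45, 47, 59 and 61 contacts, highest in the 2 IFNG treated lists. The bin after Rnase2b to the same partner had 45, 66, 55, 48 and 50, again with the 3 exposed lists above the other 2, by as little as 2 contacts. The neighbouring bin chr14:51180001-51190000 to that partner had 53, 45, 48, 47 and 62.

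Upstream, contacts varied within their counting error. The Ccnb1ip1 bin (chr14:50790001-50800000) and the Olfr750 bin (chr14:51060001-51070000) shared 42, 45, 33, 46 and 38 contacts. The bin with the TSSs of Ccnb1ip1 and Parp2 (chr14:50800001-50810000) had 48, 44, 46, 45 and 47 with the Olfr750 bin, a spread of 4 contacts over 5 lists. In M0[CTR] this was the strongest cluster loop for its span, at 2.00 times the list median. The last upstream pairs had 27, 19, 23, 26 and 21 contacts (Ccnb1ip1 bin to chr14:51050001-51060000) and 38, 32, 31, 33 and 43 contacts (the Ccnb1ip1 and Parp2 bin to chr14:51080001-51090000).

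**Figure D4:**
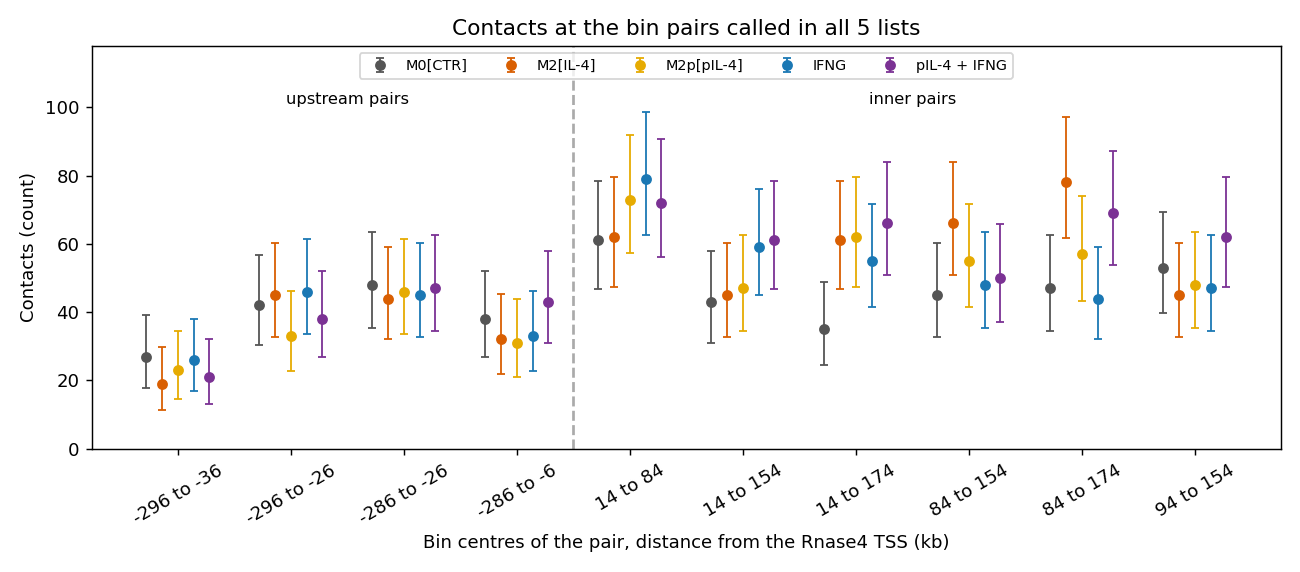
Contacts (count, with exact 95% Poisson intervals for counting error) at the 10 bin pairs called in all 5 lists, labelled by the distances of both bin centres from the Rnase4 TSS in kb and coloured by list. Upstream pairs overlap throughout, and among inner pairs the 14 to 174 kb pair is lowest in M0[CTR] at 35 and the 84 to 174 kb pair is highest in M2[IL-4] at 78.

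Summed over the pairs, inner contacts were lowest in M0[CTR]. The 6 inner pairs held 284 contacts in untreated cells, 357 with IL-4, 342 after washout, 332 with IFNG and 380 in pIL-4 + IFNG. Compared with M0[CTR] the ratios were 1.257 (95% counting interval 1.073 to 1.474), 1.204 (1.026 to 1.414), 1.169 (0.995 to 1.375) and 1.338 (1.144 to 1.566), with 5, 5, 4 and 6 of the 6 pairs higher. The 4 upstream pairs held 155, 140, 133, 150 and 149 contacts, with ratios of 0.903 (0.714 to 1.143), 0.858 (0.675 to 1.089), 0.968 (0.768 to 1.219) and 0.961 (0.763 to 1.212), and 1, 0, 1 and 1 of the 4 pairs were higher than in M0[CTR]. Over the 14063 pairs that all lists called on any chromosome, the ratios were 0.998, 1.036, 1.029 and 1.022. Since every inner ratio was set against the same M0[CTR] value, a low count in that list alone would raise all 4 together. The intervals are no test of a difference, since they leave out the spread between cultures and the genes came from these same lists.

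**Figure D5:**
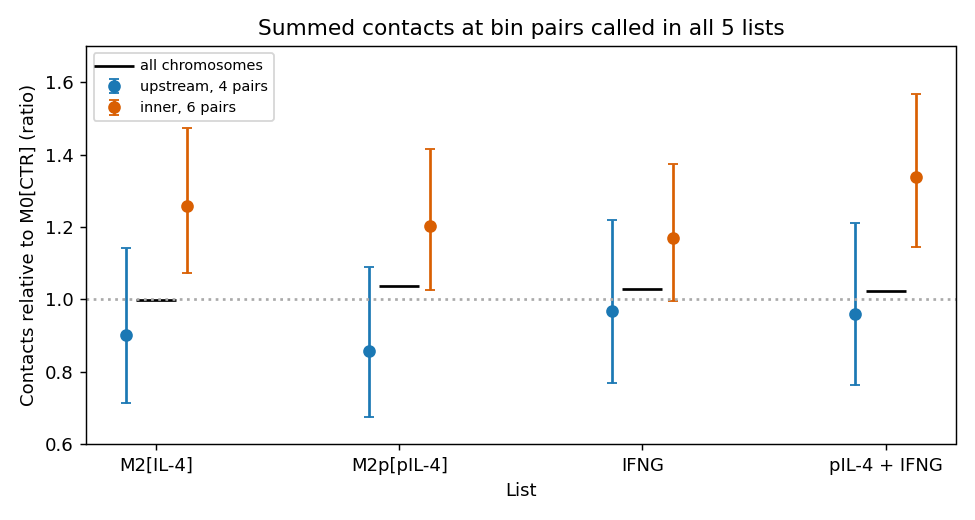
Contacts summed over the pairs called in all 5 lists, as a ratio to M0[CTR] (vertical axis), for upstream (blue) and inner (orange) pairs with 95% counting intervals and for all chromosomes (black bars), by list. Inner ratios run from 1.169 to 1.338 and upstream ratios from 0.858 to 0.968, while all chromosomes stay between 0.998 and 1.036.

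Seen from each gene, Ang2 and Ear14 stood highest, because their windows held exactly the 6 inner pairs. Among 7044 genes with at least 4 such common pairs, their contact ratio to M0[CTR] was at percentile 99.4 with IL-4, 98.4 after washout, 95.2 with IFNG and 99.3 in pIL-4 + IFNG. Rnase2b, with 9 common pairs, had ratios of 1.16, 1.097, 1.107 and 1.233, at percentiles 96.9, 83.8, 85.6 and 98.4. Rnase4, Ang, Rnase6 and Rnase1 shared all 10 pairs, with 439, 497, 475, 482 and 529 contacts and ratios of 1.132, 1.082, 1.098 and 1.205. The IL-4 exposed list without washout and the primed list with IFNG were thus the higher lists for every one of the 7 genes. These genes were proposed from the same lists, and genes that share pairs share their rank.

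CTCF consensus matches were present at anchors of the cluster about as often as at other anchors. Of the 36 anchor bins of cluster loops, 12 (33.3%) held a match with at most 1 mismatch, compared with 29.2% of chromosome 14 bins that were anchors and 19.2% of all chromosome 14 bins. Matches that pointed toward each other, plus strand in the left bin and minus in the right, were found in 7 of 69 pairs (10.1%, against 7.55% on chromosome 14). Among pairs called in all 5 lists this was 3 of 10 (30%, against 21.9%). The 3 pairs were the Ccnb1ip1 to Olfr750 pair, the Rnase4 bin to the bin past Rnase2a, and the pair of near-identical sequences, so the sequences printed above form the 2 ends of each. A bin counted for every match it held, and the Olfr750 bin held matches in both directions.

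Promoters were searched for the motif of STAT6, the factor that IL-4 activates. RefSeq (GRCm38.p6) promoter windows, 250 bases before to 50 bases after the start, were given for 6 of the 7 genes. The STAT6-type motif TTCNNNNGAA, which reads alike on both strands, was in none of them and in 6.99% of 32619 mouse promoters. No match says only that these letters are not in the window.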

How the data were processed

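Hi-C libraries of BMDMs (10 samples, 2 in each of 5 groups assigned from the sample titles) were represented by 5 loop lists, 1 per group, with mm10 coordinates. According to the methods, the authors mapped reads with HiC-Pro and bowtie2 and called loops by HICCUPS at 25 kb on balanced maps, but the deposited lists hold 10 kb bins and no false discovery rate, so their caller and threshold are not stated. The deposited values are whole-number counts of contacts per bin pair with no apparent normalization, and both replicates of a group appeared merged. The lists give no library depth, and their number limits the precision.

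The 7 genes, the other gene lists and the rules were chosen with earlier results of these data known. Loops were assigned by an anchor within 100 kb of a TSS (GENCODE M21), and a loop was matched to another list if that list held a loop with both anchors no more than 25 kb away. Loop numbers were compared as log2 of loops plus 1, scaled by list length, and called past 2-fold. The background was all 21755 protein-coding genes of the autosomes and X. Loop strength was the number of contacts divided by the median for loops of equal span in that list. Intervals were exact Poisson or Clopper-Pearson based for counts and ratios and Wilson for shares, at 95%, and cover counting error only. Genes named besides the 7 came from a list of the ribonuclease A family, a list of eosinophil genes, the genes in anchor bins and the 5 genes with the most similar loop profile. Single loops named by rule were the 3 strongest per list and the 3 with the most contacts among pairs called in all 5 lists, and other pairs were chosen after their values were seen. Promoters were also searched for a further motif, which is not reported here. CTCF matches (CTCF binding was not measured) were taken from GRCm38 sequence. The script that counts loops was tested on simulated data. Scripts ran on Python 3.11.15 with scipy 1.17.1, pandas 2.3.3, numpy 2.4.6, networkx 3.6.1 and matplotlib 3.10.9.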

Additional observations from a re-analysis of the deposited data

How the results depend on the processing

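No comparison here has a replicate check. No paired analysis was possible because the lists, 1 for every group, hold no values per replicate, so the planned fits that leave out a replicate or use the replicate block were not run. No ratio was past 2-fold, so none could lose a call, and of 35 log2 ratios of loop number (the cluster and its 7 genes) 27 changed sign under at least 1 alternative. In M2[IL-4] over M0[CTR], Rnase6 went from 0.38 to -0.25 in a 25 kb window, where Rnase4 and Ang stood at 0.02. The loop number of the cluster moved most when touching pairs were merged, to 8 in untreated cells, 9 with IL-4, 9 after washout, 6 with IFNG and 8 in pIL-4 + IFNG. The log2 ratio of M2[IL-4] to M0[CTR] then fell from 0.42 to 0.03 for the cluster, to -0.12 for Ang2 and to -0.44 for Ear14, and that of pIL-4 + IFNG to M0[CTR] from 0.22 to -0.25, since adjacent pairs then count as 1 loop. A window of 200 kb raised the count in every list, to 37 in untreated cells, 49 with IL-4, 49 after washout, 40 with IFNG and 52 in pIL-4 + IFNG. Across the settings the cluster ratio of M2[IL-4] to M0[CTR] ranged from 0.03 to 0.57, M2p[pIL-4] to M2[IL-4] from -0.47 to -0.12 and pIL-4 + IFNG to IFNG from 0.09 to 0.49, each without a change of sign. The ratio of M2p[pIL-4] to M0[CTR] ranged from -0.11 to 0.43, IFNG to M0[CTR] from -0.40 to 0.07 and pIL-4 + IFNG to M2p[pIL-4] from -0.14 to 0.26, each with a change of sign. Without scaling by list length the median ratio of all genes to M0[CTR] was 0 with IL-4, 0.19 after washout, 0 with IFNG and 0.16 with IFNG after priming, in place of -0.13, -0.15, -0.04 and -0.16. Loop classes depended on the matching distance. When the same 2 bins were required, Transient loops numbered 13, Memory loops 9, Primed loops 10, stably repressed loops (of untreated, IL-4 and washed cells, called only in untreated) 7 and transiently repressed loops (missing with IL-4, called both untreated and after washout) 3, in place of 3, 1, 0, 0 and 1. As same-bin shares these were 35.1%, 24.3%, 29.4%, 28% and 12%, against 39%, 16.5%, 43.6%, 35.7% and 15.8% over the whole lists. Within 50 kb Memory loops and transiently repressed loops fell to 0 each. With 25 to 37 loops per list, a count of 0 allows a share of 12% to 8.11%, by the limit of 3 divided by the number of loops.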

Other observations

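Other ribonuclease A genes lie beside the cluster and elsewhere on chromosome 14. Of 14 genes on the family list the annotation held 13, and 4 of these 13 were past 2-fold higher in M2[IL-4] than in M0[CTR], where 4.15% of all genes were. The 4 were Ear1, Ear10, Ang5 and Ang6, which shared the same loops, with 1 in untreated cells, 4 with IL-4, 3 after washout, 1 with IFNG and 3 in pIL-4 + IFNG and a log2 ratio of 1.20, so they are a single reading on very few loops. Ear2, nearby, had 0, 1, 1, 0 and 1 loops. Ear6 and Rnase13, on the far side of the cluster, had 7, 4, 6, 7 and 10 loops and a log2 ratio of -0.80 in M2[IL-4]. Ang4 had none in any list. Rnase2a, the eosinophil-associated gene next to Ear14, had 11, 19, 15, 11 and 21 loops and a log2 ratio of 0.61. The sperm-tract genes Rnase9 and Rnase10 had 23, 27, 26, 23 and 32 loops and 31, 35, 38, 33 and 39 loops, and Rnase11 and Rnase12 each had 21, 26, 26, 23 and 30. Over the 13 genes the median log2 ratio to M0[CTR] was 0.17 with IL-4, -0.05 after washout, -0.04 with IFNG and 0.17 in pIL-4 + IFNG. These are not 13 independent readings. Rnase2a, Rnase9, Rnase10, Rnase11 and Rnase12 lie between -83.3 and 165 kb from the Rnase4 TSS, so their windows recount loops of the cluster itself. The windows of Ear6 and Rnase13 overlap as well.

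Eosinophil genes outside the family were counted as well. In M2[IL-4] over M0[CTR], 0 of 9 genes were past 2-fold higher, against 4.15% of all genes, and 1 was past 2-fold lower, against 6.05%. That gene was Il5ra, the receptor subunit for IL-5, with 2 loops in M0[CTR] and 0 in the other 4 lists. In IFNG over M0[CTR], 2 of 9 were past 2-fold lower, against 6.05%, Il5ra and Siglecf, both on very few loops. Epx, eosinophil peroxidase, had 15, 18, 14, 25 and 18 loops and was highest in IFNG. Siglecf, a surface receptor of eosinophils, had 4, 7, 6, 1 and 3. The granule protein genes Prg2 and Prg3, whose windows overlap, had 2, 2, 4, 4 and 4 loops each, so the 9 genes are not 9 independent readings. The eotaxin receptor gene Ccr3 had 60, 59, 66, 62 and 69. Alox15, an IL-4 response gene of macrophages that eosinophils also express, had 57, 59, 80, 46 and 69. The transcription factor genes Gata1 and Cebpe had 5, 3, 7, 7 and 8 loops and 28, 26, 26, 26 and 27. The median log2 ratio of the 9 genes to M0[CTR] was -0.13, 0.07, 0 and -0.08.

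Among 11260 genes over 1 Mb from the cluster and with at least 10 loops in a list, the loop profiles over the 5 lists closest to the mean of the 7 ribonuclease genes were those of Orm1, Orm2 and Orm3, with a Euclidean distance of 0.094 on the log2 scale. These acute-phase protein genes share a window on chromosome 4 and had 15, 22, 21, 16 and 25 loops. Dnaic2 followed at 0.1, with 33, 47, 47, 34 and 52 loops, and Slc4a9 at 0.103, with 30, 40, 40, 29 and 45.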
